A study of Mus musculus with 12 samples.

Results

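The subject here is the mitochondrial ribosomal proteins, taken as every gene whose symbol begins with Mrpl (large subunit) or Mrps (small subunit) followed by a digit. The rule used names alone and no measured value. It found 78 of the 17052 genes in the deposited table, and all 78 passed the filter for testing (at least 1 FPKM in at least 3 libraries), as did 11415 genes in all. FPKM is a level per length of transcript and per fragment of a library, so levels of different genes can be set side by side.

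Messenger RNA was sequenced from the left ventricle of 12 C57BL/6 mice, 1 library per mouse. TAC+pimobendan mice (n = 3) had transverse aortic constriction, a clip on the aortic arch against which the ventricle has to pump, when 8 weeks old, and then received 1 mg/kg of pimobendan daily by mouth over 4 weeks. Pimobendan is a calcium sensitiser and phosphodiesterase inhibitor. TAC+control mice (n = 3) had the same operation, with no drug named in their labels. Sham+pimobendan mice (n = 3) had a sham operation and the same drug course, and Sham+control mice (n = 3) the sham operation with no drug named. All 12 hearts were taken at 12 weeks of age, and the series title concerns the effect of the drug on hypertrophy under pressure load.

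The mitochondrial ribosome makes the few proteins that are encoded by mitochondrial DNA, all of them core subunits of the respiratory chain and the ATP synthase. Its ribosomal RNAs come from mitochondrial DNA, whereas its proteins come from nuclear genes, are made in the cytosol and are imported. Some of these proteins descend from bacterial ribosomal proteins and others have no bacterial counterpart, and the heart, which is rich in mitochondria, carries much of this machinery. In these data 51 of the 78 genes encode large subunit proteins, 30 with a bacterial homolog and 21 without. Another 26 encode small subunit proteins, 16 with a bacterial homolog and 10 without. Despite their symbols, Mrps18a and Mrps30 belong to the large subunit. Mrps36 is now known as a subunit of the alpha-ketoglutarate dehydrogenase complex of the citric acid cycle. It is kept apart from the subunit classes but stays among the 78 genes.

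The genes were well expressed in the ventricle. The median of their mean FPKM over 12 libraries was 58.2 FPKM, against 8.83 FPKM for all 11415 genes tested, and 77 of the 78 genes lay above that median of all genes. The respiratory chain and ATP synthase subunits that are encoded in the nucleus (82 genes tested) had a median of 802 FPKM, and the proteins of the cytosolic ribosome (85 genes tested) a median of 417 FPKM. Between subunits the levels were alike, with medians of 59.7 FPKM for the large and 54.2 FPKM for the small subunit.

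Proteins of 1 particle differed widely in transcript level. Mean FPKM over the 12 libraries ran from 7.48 for Mrpl19 to 443 for Mrpl42. Mrpl30 at 357 FPKM, Mrps21 at 336 FPKM, Mrpl12 at 235 FPKM, Mrpl23 at 206 FPKM and Mrpl14 at 155 FPKM followed Mrpl42. The lowest after Mrpl19 were Mrps25 at 9.98 FPKM and Mrpl17 at 10.01 FPKM. In all 19 genes reached 100 FPKM and 7 stayed below 20 FPKM. Part of a level may belong to a neighbour where exons overlap: 26 of the 78 genes share exon bases with another gene, among them Mrps25 (3533 of 6073 bases, with Nr2c2) and Mrpl19 (1962 of 5000 bases, with Gcfc2). Mrpl42, Mrpl50, Mrpl1, Mrpl34 and Mrps2 share none.

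Each gene's own level moved little between hearts. The ratio of the highest to the lowest of the 12 libraries had a median of 1.34 over the 78 genes, with a range of 1.19 for Mrpl49 to 1.80 for Mrpl50. The spread within groups (SD on the log2 scale) had a median of 0.122, against 0.152 for all genes tested. It was smaller still for the respiratory chain and ATP synthase subunits (0.107) and the cytosolic ribosomal proteins (0.0882). As a share of all FPKM in a library, the 78 genes took 0.998% ± 0.021 in TAC+pimobendan, 1.03% ± 0.033 in TAC+control, 1.01% ± 0.045 in Sham+pimobendan and 1.00% ± 0.042 in Sham+control (SD, n = 3 each). These shares overlap between the groups.

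**Figure D1:**
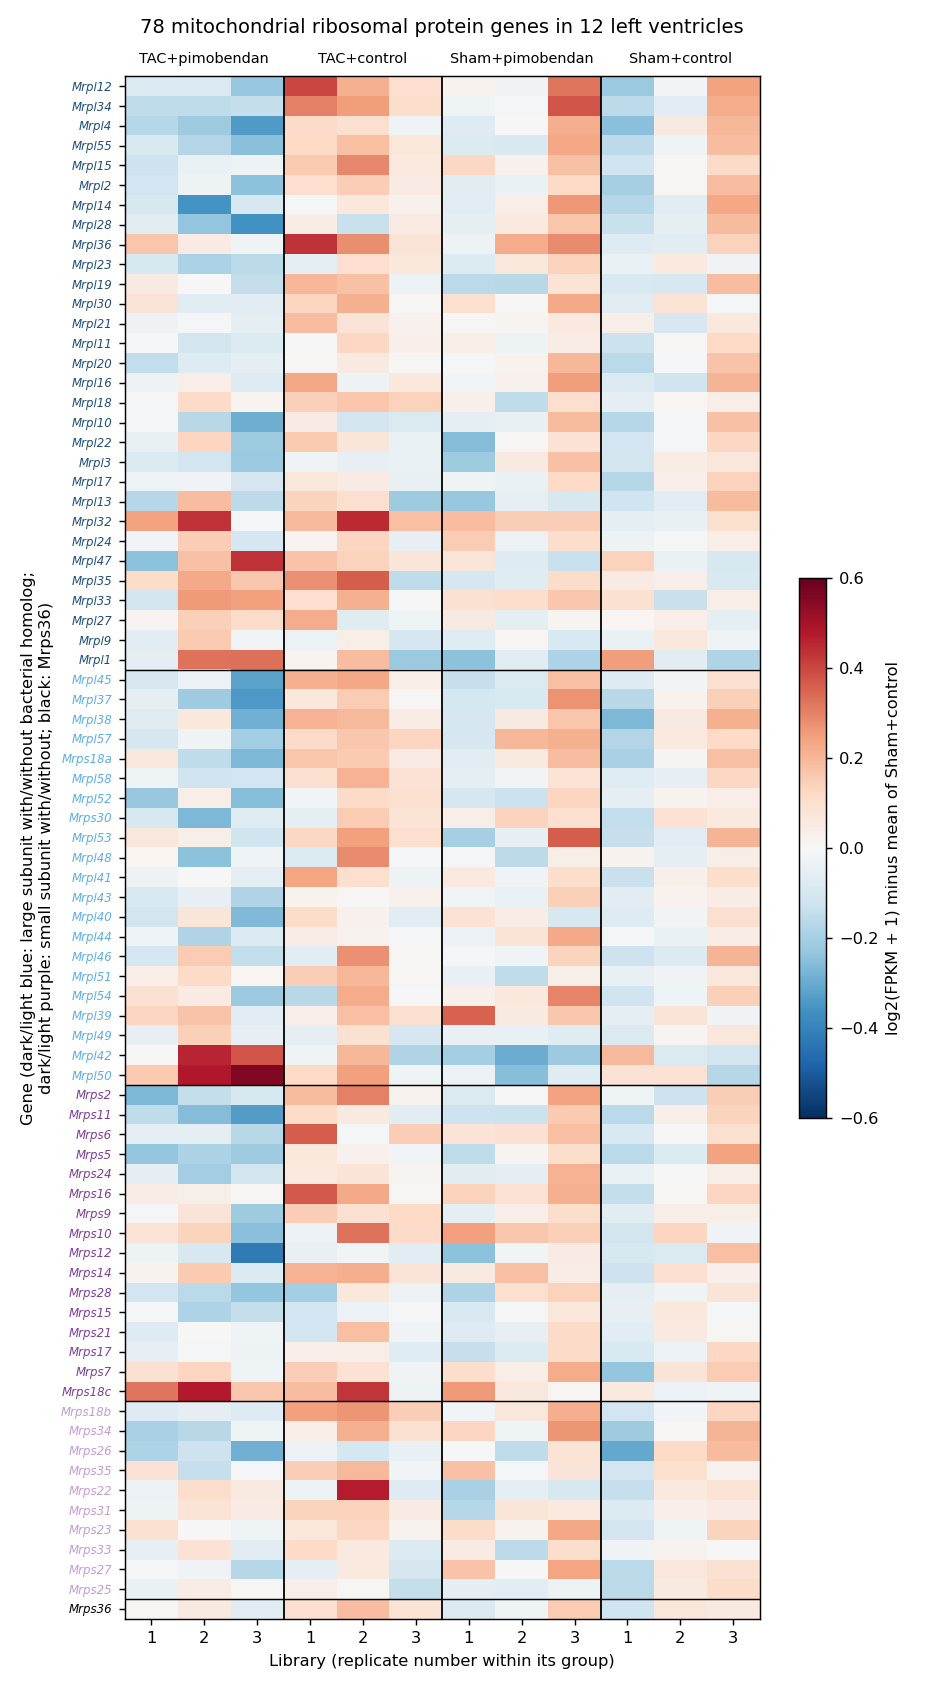
Level of the 78 genes (rows, grouped by subunit and ancestry, then ordered by their log2 fold change between TAC+pimobendan and TAC+control) in the 12 libraries (columns), as log2(FPKM + 1) minus the gene's mean in Sham+control. Most rows are blue to white in TAC+pimobendan and red in TAC+control libraries 1 and 2, while Mrpl50, Mrpl42 and Mrpl1 are red in TAC+pimobendan libraries 2 and 3.

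The promoters of 4 genes are shown because these genes lie at opposite ends of the fold changes described further on: Mrpl50 and Mrpl42 at the high end, Mrpl34 and Mrpl12 at the low end under TAC+pimobendan. Each is the 250 bases before the RefSeq start site on the gene's own strand, from GRCm38.p6. Mrpl50 and Mrpl42 are proteins of the large subunit without a bacterial counterpart, Mrpl34 is the counterpart of bacterial L34, and Mrpl12 is the counterpart of L7/L12, which forms the stalk that recruits translation factors. The Mrpl50 window is at chr4:49521084-49521333 on the minus strand, that of Mrpl42 at chr10:95501950-95502199 on the minus strand, that of Mrpl34 at chr8:71464676-71464925 on the plus strand and that of Mrpl12 at chr11:120484387-120484636 on the plus strand. The genes themselves run from there at chr4:49512597-49521083, chr10:95480805-95501949, chr8:71464926-71465753 and chr11:120484637-120488754. Capitals mark matches to the motifs named after the sequences.
Mrpl50: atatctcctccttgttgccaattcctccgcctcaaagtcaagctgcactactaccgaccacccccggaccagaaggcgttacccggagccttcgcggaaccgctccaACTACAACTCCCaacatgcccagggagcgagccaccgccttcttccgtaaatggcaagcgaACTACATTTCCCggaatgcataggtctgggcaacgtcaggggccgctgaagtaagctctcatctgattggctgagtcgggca
Mrpl42: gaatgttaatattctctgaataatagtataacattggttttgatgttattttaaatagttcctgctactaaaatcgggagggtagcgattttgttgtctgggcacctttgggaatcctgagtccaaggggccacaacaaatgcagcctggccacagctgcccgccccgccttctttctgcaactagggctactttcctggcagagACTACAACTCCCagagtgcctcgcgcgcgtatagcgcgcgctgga
Mrpl34: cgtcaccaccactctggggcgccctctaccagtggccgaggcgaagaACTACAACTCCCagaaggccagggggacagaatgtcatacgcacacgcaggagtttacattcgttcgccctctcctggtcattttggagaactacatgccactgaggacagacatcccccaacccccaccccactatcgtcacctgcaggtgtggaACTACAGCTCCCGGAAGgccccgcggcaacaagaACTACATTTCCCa
Mrpl12: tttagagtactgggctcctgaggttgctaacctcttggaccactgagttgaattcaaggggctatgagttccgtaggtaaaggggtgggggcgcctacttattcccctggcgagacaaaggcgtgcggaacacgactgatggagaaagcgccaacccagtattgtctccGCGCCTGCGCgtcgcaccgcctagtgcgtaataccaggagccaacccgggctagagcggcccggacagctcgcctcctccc

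The motifs were chosen with the fold changes known and were searched on both strands of the 250-base windows: CCGGAAG, a core bound by ETS factors such as GABP, AAGATGGCG for YY1, the NRF1 motif (GCGCA and GCGC with any base between them) and the ZNF143 motif (ACTACA and TCCC with any 2 bases between them). RefSeq windows were matched for 69 of the 78 genes. CCGGAAG was found in 18 of these 69 windows (26.1%), against 7.83% of the windows of all 27025 genes. The NRF1 motif was found in 10 (14.5%, against 4.23%), AAGATGGCG in 2 (2.90%, against 0.711%) and the ZNF143 motif in 5 (7.25%, against 1.92%). The 27025 genes were not limited to the 11415 genes tested. Shares among genes of like expression were not taken, so the higher shares may not be particular to these genes.

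The 5 genes with the ZNF143 motif were Mrpl24, Mrpl34, Mrpl42, Mrpl50 and Mrps22. Mrpl50 held it at positions -143 to -132 and -82 to -71 from the start site, and Mrpl42 at -45 to -34. Mrpl34, at the other end of the fold changes, held 3 matches, at -203 to -192, -47 to -36 and -13 to -2, and the ETS core at -37 to -31, which overlaps the second of them by 2 bases. Mrpl12 held the NRF1 motif, read on the opposite strand, at -81 to -72. The 18 genes with the ETS core had a median log2 fold change of -0.12 between TAC+pimobendan and TAC+control, and the 51 without it -0.12. A match describes letters in a window and no binding was measured.

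For each comparison log2(FPKM + 1) was fitted with limma over all 12 libraries, and a gene was called at a Benjamini-Hochberg adjusted p under 0.05 over the 11415 genes. In whole tissue, fewer cells of a type and less RNA per cell cannot be told apart.

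TAC+pimobendan was first set against TAC+control, the comparison that asks what the drug does in the loaded ventricle. Most of the genes were at somewhat lower levels with the drug: the log2 fold change was below 0 for 68 of the 78, against 34% of all genes tested, while 54 were below 0 on the deposited TPM scale. Their median log2 fold change was -0.12, whereas the median of all genes tested was 0.10. On TPM these medians were -0.05 and 0.17, and with 1 library left out at a time the median of the 78 ran from -0.16 to -0.09. The 78 genes have short transcripts, with a median of 1328 bases against 3107 bases for all genes tested. The part of transcript length in the difference from all genes was not tested. None of the 78 genes passed limma's adjusted threshold in either direction, where 3.15% of all genes tested were called higher and 0.114% lower. The calls over all genes depended on the setting: none of the 11415 was called under median-ratio scaling, under quantile normalisation, without a filter or in a fit of the 2 TAC groups alone, and with 1 library left out 0 to 1096 were called higher and 0 to 94 lower. At an unadjusted p under 0.05, 21 genes were lower and 2 higher, against 4.34% and 22.3% of all genes tested. These 23 genes, beside 3040 of all 11415, became 10 on TPM (3506 of all) and 45 under median-ratio scaling (3021 of all). They were 8, 11 and 12 without TAC+pimobendan library 3, TAC+control library 1 and TAC+control library 2, beside 2278, 2334 and 2733 of all. The FPKM of the 3 TAC+pimobendan libraries lay wholly below those of the 3 TAC+control libraries for 31 genes (39.7%, against 6.64% of all genes tested) and wholly above for none (against 23.3%). These counts depend on the scale. The FPKM of all genes in a library summed to 593203 to 608040 in TAC+pimobendan and to 623408 to 643478 in TAC+control. These totals were thus themselves wholly lower in the drug group. On TPM 15 genes lay wholly below, against 3.24% of all genes tested.

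Both subunits held genes of this kind. Wholly lower genes numbered 13 of 30 and 8 of 21 in the large subunit with and without a bacterial homolog, and 6 of 16 and 3 of 10 in the small subunit. Mrps36, outside these classes, was wholly lower as well. The median log2 fold change was -0.12 for the large and -0.13 for the small subunit.

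The most negative log2 fold changes were those of Mrpl12, Mrpl34 and Mrps2. Mrpl12 stood at 212, 211 and 192 FPKM in TAC+pimobendan, against 296, 260 and 241 FPKM in TAC+control. Sham+pimobendan hearts had 227, 221 and 280 FPKM of Mrpl12, and Sham+control hearts 192, 221 and 265 FPKM. The drug group lay below the undrugged group after TAC without overlap, and within the range of the Sham+control hearts or just under it. The log2 fold change of Mrpl12 between TAC+pimobendan and TAC+control was -0.37 ± 0.12 (SE), with a limma adjusted p of 0.0876. Mrpl12 shares 200 of its 1316 exon bases with the opposite-strand gene Gm16755, and the strand of the libraries is not given in the sources used here.

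Mrpl34 was nearly constant with the drug after TAC, at 94.5, 94.4 and 94.8 FPKM in TAC+pimobendan, against 130, 125 and 113 FPKM in TAC+control. Its levels were 103, 105 and 137 FPKM in Sham+pimobendan and 94.2, 100.1 and 122.7 FPKM in Sham+control. All 3 TAC+control libraries were above all 3 TAC+pimobendan libraries, and the sham groups spanned the interval between them. The log2 fold change was -0.37 ± 0.12 (SE; limma adjusted p = 0.0779).

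Mrps2, the counterpart of bacterial S2 in the small subunit, had 24.9, 27.3 and 28.3 FPKM in TAC+pimobendan, against 34.6, 37.5 and 30.8 FPKM in TAC+control. The groups did not overlap. Sham+pimobendan libraries held 28.5, 30.3 and 35.9 FPKM of Mrps2, and Sham+control libraries 29.8, 27.7 and 33.7 FPKM. Its log2 fold change was -0.34 ± 0.11 (SE; limma adjusted p = 0.0795).

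The smallest adjusted p of the 78 genes in this comparison was that of Mrps18b, 1 of 3 mammalian relatives of bacterial S18. The classes used here count Mrps18b and Mrps18a as without a bacterial homolog and Mrps18c as with one. Mrps18b stood at 49.4, 50.1 and 49.4 FPKM in TAC+pimobendan, against 62.1, 63.0 and 58.0 FPKM in TAC+control. Levels were 51.7, 54.8 and 60.9 FPKM in Sham+pimobendan and 48.2, 51.7 and 57.2 FPKM in Sham+control. The TAC+control hearts thus lay above both the TAC+pimobendan and the Sham+control hearts. The log2 fold change of Mrps18b was -0.29 ± 0.08 (SE; limma adjusted p = 0.0609), and 638 of its 1079 exon bases are shared with the opposite-strand gene Gm16279.

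Its relatives had other values, and the difference between the 3 genes was not tested. Mrps18c, the small subunit relative with the closest link to the bacterial protein, had 59.9 ± 6.7 FPKM in TAC+pimobendan and 55.2 ± 9.0 FPKM in TAC+control (SD, n = 3 each), with a log2 fold change of 0.12 ± 0.12 (SE). Mrps18a, in the large subunit, had 90.0 ± 10.9 FPKM in TAC+pimobendan and 106.2 ± 4.7 FPKM in TAC+control, with a log2 fold change of -0.24 ± 0.11 (SE).

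**Figure D2:**
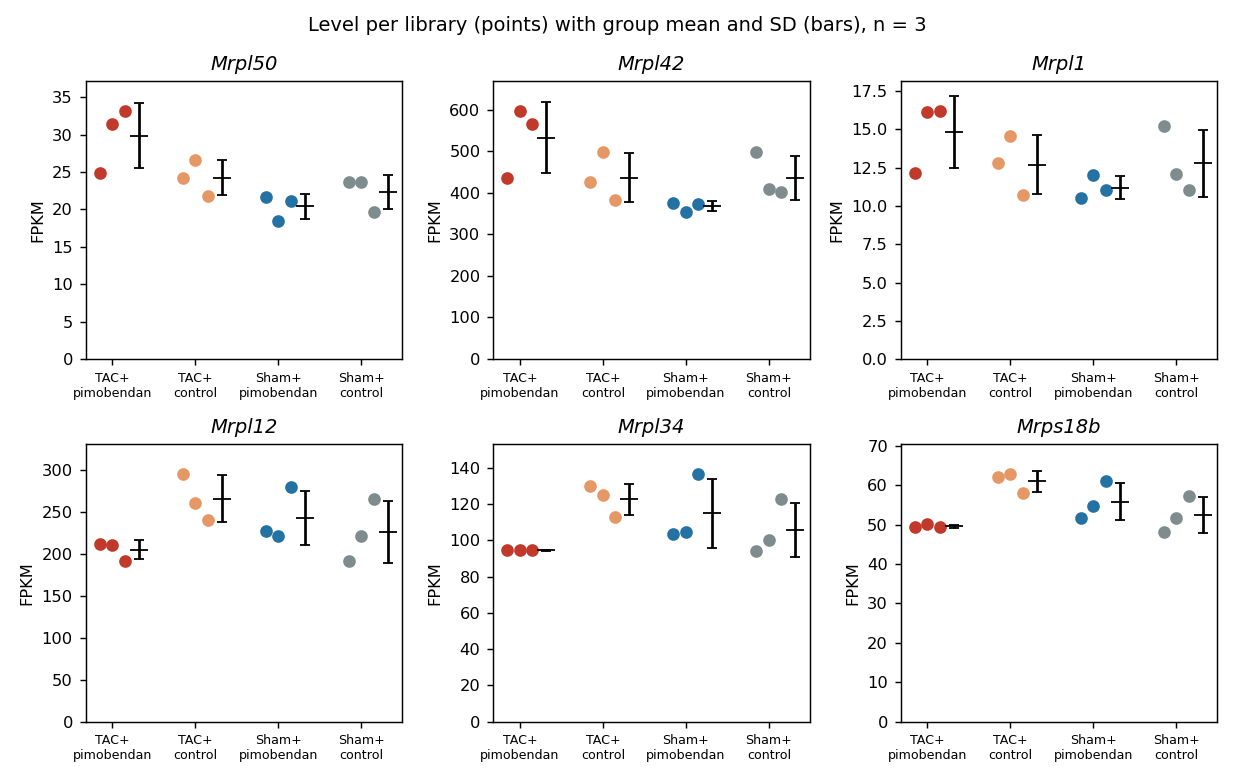
FPKM of 6 genes in each of the 12 libraries (points, by group), with the group mean and SD (bars, n = 3). Mrpl50, Mrpl42 and Mrpl1 are highest by group mean in TAC+pimobendan; Mrpl12, Mrpl34 and Mrps18b are lower in all 3 TAC+pimobendan libraries than in any TAC+control library.

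Other large subunit proteins with a known task followed the same order. Mrpl45, which tethers the ribosome to the inner membrane near the exit of the nascent chain, had 43.1 ± 4.5 FPKM in TAC+pimobendan and 53.7 ± 3.9 FPKM in TAC+control (SD, n = 3 each). Its log2 fold change was -0.31 ± 0.11 (SE; limma adjusted p = 0.0885). Mrpl58, a peptidyl-tRNA hydrolase built into the large subunit that can release stalled chains, had 84.0 ± 3.1 FPKM in TAC+pimobendan and 97.9 ± 4.6 FPKM in TAC+control, with a log2 fold change of -0.22 ± 0.08 (SE; limma adjusted p = 0.0982). Neither gene's TAC groups overlapped.

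Mrpl3 and Mrpl44 are large subunit genes in which human mutations cause cardiomyopathy. Mrpl3 had 73.6 ± 3.7 FPKM in TAC+pimobendan and 79.0 ± 0.6 FPKM in TAC+control, and Mrpl44 had 45.4 ± 2.6 FPKM in TAC+pimobendan and 49.2 ± 0.8 FPKM in TAC+control (SD, n = 3 each). Their log2 fold changes were -0.10 ± 0.09 and -0.11 ± 0.08 (SE), with limma adjusted p of 0.530 and 0.395. In both genes all 3 TAC+pimobendan libraries were below all 3 TAC+control libraries, by a small step. Mrpl10 and Mrpl11, which form the base of the stalk, had log2 fold changes of -0.11 ± 0.11 and -0.12 ± 0.08 (SE). Of the large subunit proteins without a bacterial counterpart, Mrpl41 had one of -0.13 ± 0.09 and Mrps30 one of -0.20 ± 0.09 (SE).

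In the small subunit, Mrps5, the counterpart of bacterial S5, had 38.7 ± 0.6 FPKM in TAC+pimobendan and 45.7 ± 1.3 FPKM in TAC+control, a log2 fold change of -0.24 ± 0.10 (SE; limma adjusted p = 0.166). Mrps34, on which the stability of the small subunit depends, had 63.8 ± 4.2 FPKM in TAC+pimobendan and 75.8 ± 4.8 FPKM in TAC+control, a log2 fold change of -0.24 ± 0.11 (SE; limma adjusted p = 0.176). Mrps6 had 43.2 ± 1.9 FPKM in TAC+pimobendan and 52.3 ± 7.0 FPKM in TAC+control (log2 fold change -0.26 ± 0.09, SE), and 305 of its 846 exon bases are shared with Gm49711, 159 also with Slc5a3. Those 3 genes did not overlap between the TAC groups.

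The decoding-centre protein Mrps12 (-0.14 ± 0.12), Mrps14 (-0.14 ± 0.09) and Mrps16 (-0.17 ± 0.10) had negative log2 fold changes with overlapping groups. Mrps22 (-0.08 ± 0.13) and Mrps7 (-0.01 ± 0.10) lay within 1 SE of 0, and both changed sign when single libraries were left out, Mrps7 also on the TPM scale. Mrps36, the dehydrogenase subunit, had 141.3 ± 5.7 FPKM in TAC+pimobendan and 153.9 ± 5.9 FPKM in TAC+control, a log2 fold change of -0.12 ± 0.08 (SE; limma adjusted p = 0.354). Its value thus sat at the median of the ribosomal genes.

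Against this direction stood 10 genes, led by Mrpl50, Mrpl42 and Mrpl1. Mrpl50 had 24.9, 31.5 and 33.2 FPKM in TAC+pimobendan and 24.3, 26.6 and 21.9 FPKM in TAC+control. Mrpl42 had 436, 597 and 564 FPKM in TAC+pimobendan and 427, 499 and 383 FPKM in TAC+control. In both genes the first TAC+pimobendan library lay inside the TAC+control range and the other two above it. The log2 fold changes were 0.28 ± 0.12 and 0.28 ± 0.13 (SE), with limma adjusted p of 0.157 and 0.178. Mrpl1, the counterpart of bacterial L1, had 12.1, 16.2 and 16.2 FPKM in TAC+pimobendan and 12.8, 14.6 and 10.7 FPKM in TAC+control, a log2 fold change of 0.21 ± 0.14 (SE; limma adjusted p = 0.388).

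TAC+pimobendan was then set against Sham+pimobendan, which gives the effect of the load in treated mice. Here 2 of the 78 genes passed the threshold and both rose, Mrpl50 and Mrpl42, where 4.64% of all genes tested were called higher and 0.245% lower. Over all genes these calls fell to 0 without a filter, with the replicate number as a block and in a fit of both groups alone, and ran from 0 to 1090 higher and 0 to 135 lower with 1 library left out. This comparison shares its TAC+pimobendan libraries with the preceding one. Sham+pimobendan libraries held 21.7, 18.5 and 21.1 FPKM of Mrpl50, below all 3 TAC+pimobendan libraries. Mrpl50 was higher by 0.52 ± 0.12 on the log2 scale (SE; limma adjusted p = 0.0360). Sham+pimobendan libraries held 377, 353 and 374 FPKM of Mrpl42, again below all 3 TAC+pimobendan libraries. The increase of Mrpl42 was 0.52 ± 0.13 on the log2 scale (SE; limma adjusted p = 0.0400).

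Both calls sat close to the threshold. With 1 library left out at a time, the adjusted p of Mrpl50 ranged from 0.00627 to 0.170 and that of Mrpl42 from 0.00554 to 0.179. Both calls were lost without any 1 of the 3 Sham+pimobendan libraries and without TAC+pimobendan library 2 or 3, and that of Mrpl42 also without Sham+control library 2 or TAC+control library 1. Over 8 other settings the adjusted p was 0.0294 to 0.0740 for Mrpl50 and 0.0313 to 0.0774 for Mrpl42. In mice without the drug Mrpl50 had 24.2 ± 2.4 FPKM in TAC+control and 22.3 ± 2.3 FPKM in Sham+control, and Mrpl42 had 436.4 ± 58.5 FPKM in TAC+control and 436.5 ± 53.3 FPKM in Sham+control (SD, n = 3 each). The difference between the TAC effects with and without the drug was 0.41 ± 0.17 on the log2 scale for Mrpl50 and 0.52 ± 0.18 for Mrpl42 (SE), with limma adjusted p of 0.207 and 0.136.

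Mrpl1 and Mrps22 were the other genes whose TAC+pimobendan libraries lay wholly above those of Sham+pimobendan, so 4 of 78 did so (5.13%, against 18.6% of all genes tested). Mrpl1 had 10.5, 12.0 and 11.0 FPKM in Sham+pimobendan, a log2 fold change of 0.37 ± 0.14 (SE; limma adjusted p = 0.153). Mrps22, in which human mutations cause a neonatal disease that includes cardiomyopathy, had 18.00, 19.95 and 19.20 FPKM in TAC+pimobendan and 16.01, 17.75 and 17.21 FPKM in Sham+pimobendan, so the groups were separated by only a small step.

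Most other genes had lower values in TAC+pimobendan than in Sham+pimobendan. The log2 fold change was below 0 for 58 of 78 genes, against 51% of all genes tested, and its median was -0.11, against -0.01 for all genes tested. The median was -0.06 without Sham+pimobendan library 3, without TAC+pimobendan library 3 and on TPM. On the TPM scale 53 genes were below 0. The libraries lay wholly apart in that direction for 19 genes (24.4%, against 9.35% of all genes tested), 9 of 30 and 2 of 21 in the large subunit with and without a bacterial homolog, and 6 of 16 and 2 of 10 in the small subunit. The difference between these classes was not tested. None of these passed the limma threshold, and at an unadjusted p under 0.05 there were 9 lower and 3 higher genes, against 6.09% and 16.8% of all genes tested. Those 12 genes, beside 2610 of all 11415, became 7 on TPM (2499 of all) and 7 under quantile normalisation (2634). Under median-ratio scaling they were 19 (2779). They were 2, 5 and 6 without Sham+pimobendan library 3, TAC+pimobendan library 2 and TAC+pimobendan library 3, beside 1745, 1918 and 1782 of all.

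The lowest log2 fold changes against Sham+pimobendan were those of Mrpl4, Mrpl28 and Mrpl34. Mrpl4 had 121, 118 and 108 FPKM in TAC+pimobendan and 129, 137 and 159 FPKM in Sham+pimobendan, a log2 fold change of -0.29 ± 0.11 (SE; limma adjusted p = 0.145). Mrpl28 had 132, 117 and 107 FPKM in TAC+pimobendan and 133, 144 and 156 FPKM in Sham+pimobendan, a log2 fold change of -0.28 ± 0.10 (SE; limma adjusted p = 0.132). The groups did not overlap in either gene, and in Mrpl28 the highest TAC+pimobendan library came close to the lowest Sham+pimobendan library. Mrpl34 had a log2 fold change of -0.27 ± 0.12 (SE; limma adjusted p = 0.202).

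TAC+control against Sham+control gives the effect of the load without the drug. No gene of the 11415 was called (0% higher and 0% lower), so none of the 78 was. At an unadjusted p under 0.05, 3 of the 78 were higher and 0 lower, against 1.5% and 6.83% of all genes tested. With 1 library left out such genes numbered 0 to 8, beside 642 to 1156 of all 11415. Under median-ratio scaling they were 17, beside 919 of all. The log2 fold change was above 0 for 65 of 78 genes, against 34.9% of all genes tested, and for 49 of 78 on the TPM scale. The median was 0.07, against -0.06 for all genes tested. It was 0.03 on TPM, 0.03 and 0.12 without Sham+control library 1 and library 3, and 0.05 and 0.11 without TAC+control library 2 and library 3. TAC+control libraries lay wholly above Sham+control libraries for 6 genes (7.69%, against 3% of all genes tested) and wholly below for none (against 9.74%).

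These 6 genes were Mrpl18, Mrpl32, Mrps9, Mrps18b, Mrps31 and Mrps36. Mrpl32, whose maturation by a mitochondrial protease precedes its assembly into the ribosome, had 52.5, 62.7 and 51.9 FPKM in TAC+control and 44.0, 44.4 and 49.1 FPKM in Sham+control. Its log2 fold change of 0.27 ± 0.11 (SE; limma adjusted p = 0.561) was the highest of the 78. Mrpl36 had 68.1, 61.0 and 52.9 FPKM in TAC+control and 47.5, 47.9 and 55.3 FPKM in Sham+control, so that its groups overlapped, with a log2 fold change of 0.26 ± 0.11 (SE; limma adjusted p = 0.571).

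Mrpl12 came next with a log2 fold change of 0.24 ± 0.12 (SE; limma adjusted p = 0.636), and its groups overlapped. Mrps18b differed by 0.22 ± 0.08 (SE; limma adjusted p = 0.561). At the low end Mrps26 (-0.06 ± 0.12), Mrps28 (-0.06 ± 0.10) and Mrps15 (-0.05 ± 0.07) had log2 fold changes within 1 SE of 0, and all 3 were positive under median-ratio scaling.

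The effect of pimobendan in sham-operated mice was read from Sham+pimobendan against Sham+control. No gene of the 11415 was called (0% in either direction), and none of the 78 reached an unadjusted p under 0.05 in limma, against 4.54% of all genes tested. The log2 fold change was above 0 for 52 of 78 genes, against 53.7% of all genes tested, and for 42 on the TPM scale. Its median was 0.03, against 0.01 for all genes tested, and under quantile normalisation it was -0.0013. The direction turned on single libraries: without Sham+pimobendan library 3 the median was -0.03 with 30 genes above 0, without Sham+control library 1 it was -0.02 with 31, without Sham+pimobendan library 1 or 2 it was 0.06, and without Sham+control library 3 it was 0.09 with 62. Libraries lay wholly apart for 3 higher genes (3.85%, against 6.16% of all genes tested) and 1 lower gene (1.28%, against 4.98%).

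The lower gene was Mrpl42, at 377, 353 and 374 FPKM in Sham+pimobendan against 498, 409 and 402 FPKM in Sham+control. Its log2 fold change of -0.24 ± 0.13 (SE; limma adjusted p = 0.910) had a 95% interval of -0.51 to 0.03. Mrpl1 (-0.17 ± 0.14) and Mrpl13 (-0.13 ± 0.12) were next, with overlapping groups. The higher genes by value were Mrpl39 (0.19 ± 0.09), Mrps10 (0.18 ± 0.12) and Mrpl32 (0.16 ± 0.11; SE throughout). Mrps10 and Mrpl32, with Mrpl33, were the 3 genes whose groups lay wholly apart.

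The interaction, the TAC effect with the drug minus the TAC effect without it, called no gene of the 11415 (0%). Of 12 fits with 1 library left out 10 called none, while without TAC+pimobendan library 1 there were 738 higher and 35 lower. With all 12 libraries, 12 of the 78 genes were lower and 2 higher at an unadjusted limma p under 0.05. Over all genes tested these shares were 3.69% and 16.6%. These 14 of the 78, beside 2312 of all 11415, became 6 on TPM (2508 of all) and 35 under median-ratio scaling (2484). They were 9 under quantile normalisation (1899) and 9 without TAC+pimobendan library 3 (1807). Without Sham+control library 3 they were 27 (2607). They were 7 without Sham+control library 1, TAC+control library 2 or Sham+pimobendan library 3, beside 1623, 2141 and 1584 of all. The interaction was below 0 for 65 of 78 genes, against 41% of all genes tested, and for 57 of 78 on the TPM scale. The median was -0.17, against 0.07 for all genes tested. The most negative values were those of Mrpl34 (-0.49 ± 0.17), Mrpl12 (-0.48 ± 0.17) and Mrps2 (-0.39 ± 0.16), and the most positive those of Mrpl42, Mrpl50 and Mrpl1 (0.37 ± 0.20; SE throughout). The interaction and the simple comparisons use the same libraries, so their values are not separate evidence.

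**Figure D3:**
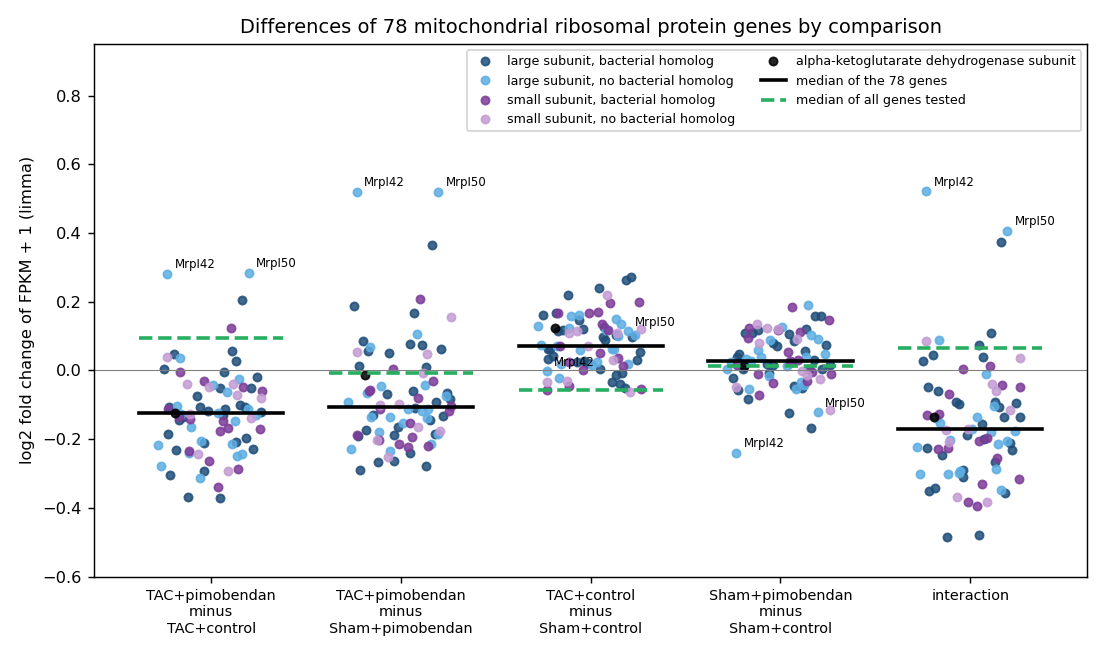
Log2 fold change of FPKM + 1 of the 78 genes (points, coloured by subunit and ancestry) in the 5 comparisons, with the median of the 78 genes (black bar) and of all 11415 genes tested (green dashes). The black bar is below the green dashes in TAC+pimobendan against TAC+control (-0.12 against 0.10) and above them in TAC+control against Sham+control (0.07 against -0.06), and Mrpl42 and Mrpl50 stand apart at 0.52 in TAC+pimobendan against Sham+pimobendan.

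Over the 12 libraries most of the genes moved together. The correlation of a gene's log2(FPKM + 1) with the mean of the other 77 had a median of 0.65 and was 0.5 or above for 58 genes. The libraries share groups, scale and base composition bias, so this is a description. Mrpl2 (0.94), Mrpl38 (0.92), Mrpl55 (0.92), Mrpl12 (0.92) and Mrpl45 (0.91) were most alike to the rest. Mrpl1 (-0.34), Mrpl50 (-0.32), Mrpl42 (-0.31), Mrpl47 (-0.30), Mrpl27 (-0.16) and Mrpl9 (-0.01) were the 6 genes below 0.

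Averaged over the 78 genes, the level of a library on the log2 scale, relative to the mean of Sham+control, was -0.04, 0.00 and -0.09 in TAC+pimobendan, 0.09, 0.14 and 0.01 in TAC+control, -0.02, -0.01 and 0.12 in Sham+pimobendan, and -0.09, 0.00 and 0.09 in Sham+control. All 3 TAC+control libraries were above all 3 TAC+pimobendan libraries, although the highest TAC+pimobendan library (0.0048) and the lowest TAC+control library (0.0067) nearly met. The group means were -0.04 ± 0.05 in TAC+pimobendan, 0.08 ± 0.07 in TAC+control, 0.03 ± 0.08 in Sham+pimobendan and 0 ± 0.09 in Sham+control (SD, n = 3 each), and both sham groups overlapped with both TAC groups.

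Respiratory chain genes and, from outside the organelle, cytosolic ribosomal genes were set beside these values. Both sets have short transcripts too (medians of 861 and 941.5 bases, against 3107 bases for all genes tested). The part of length in a shared direction was not tested. The 82 respiratory chain and ATP synthase subunits had a median log2 fold change of -0.14 between TAC+pimobendan and TAC+control, close to that of the ribosomal genes, with 70 of 82 below 0 and 1 gene called. It was -0.06 on TPM, -0.26 under median-ratio scaling and -0.03 under quantile normalisation. The called gene was Cox6a1, a cytochrome oxidase subunit, which fell to 246.4 ± 17.3 FPKM in TAC+pimobendan, against 339.4 ± 4.6 FPKM in TAC+control (SD, n = 3 each; limma adjusted p = 0.0431). Its call held in 3 of 8 other settings and held in 5 of 12 fits with 1 library left out, where the limma adjusted p ran from 0.0271 to 0.163. The 85 cytosolic ribosomal proteins had a median of -0.06, with 57 below 0 and 0 called, and the sign turned on TPM (0.02) and under quantile normalisation (0.03). Between TAC+control and Sham+control the medians were 0.04 in both of these sets, and close to 0 on TPM.

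**Figure D4:**
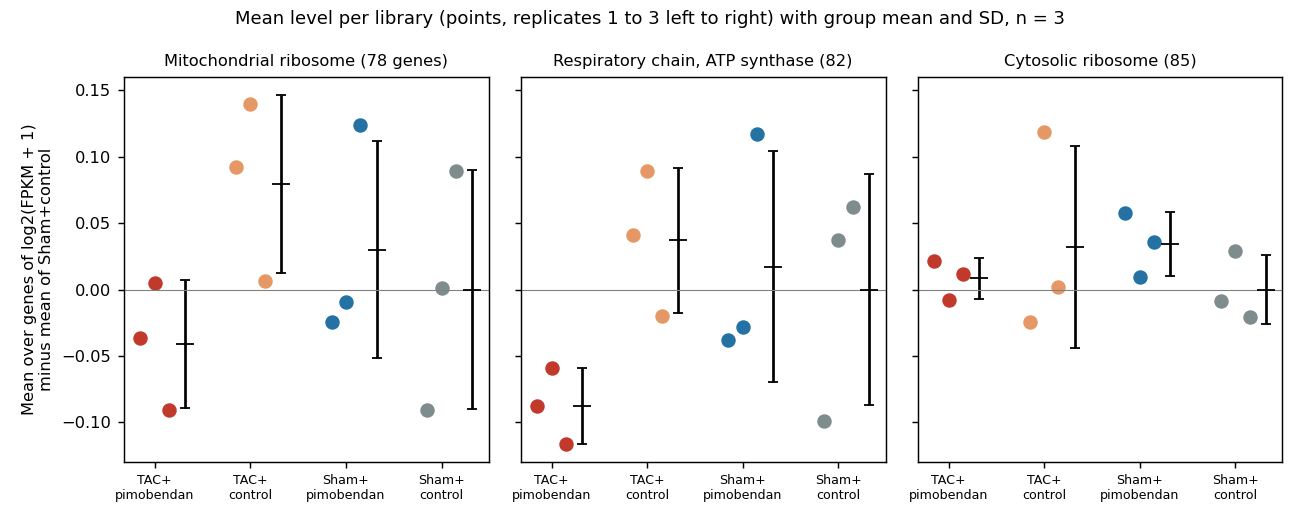
Mean over genes of log2(FPKM + 1), relative to the mean of Sham+control, in each library (points) for the 78 mitochondrial ribosomal genes, 82 respiratory chain and ATP synthase genes and 85 cytosolic ribosomal genes, with the group mean and SD (bars, n = 3). In the first 2 panels the 3 TAC+pimobendan libraries lie at or below 0.01, and the Sham+control libraries spread from -0.09 to 0.09 in the first.

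Lists of genes that serve the mitochondrial ribosome under other names held a few called genes, all higher in TAC+pimobendan, as were most called genes of the whole table (360 higher and 13 lower against TAC+control, 530 and 28 against Sham+pimobendan). Their calls were lost without a filter, with the replicate number as a block and in fits of the groups compared alone, and the whole table then held at most 1 call in either comparison. Of 5 further ribosomal proteins (Dap3, Ptcd3, Chchd1, Aurkaip1 and Gadd45gip1), 1 was called: Ptcd3, a small subunit protein that binds RNA, rose to 59.3 ± 7.3 FPKM in TAC+pimobendan, against 44.6 ± 2.4 FPKM in Sham+pimobendan (SD, n = 3 each; limma adjusted p = 0.0454). Of 24 factors of mitochondrial transcription and ribosome assembly, 2 were called, both higher. Tfb2m, which opens mitochondrial promoters, rose to 36.2 ± 2.3 FPKM in TAC+pimobendan, against 25.7 ± 3.5 FPKM in Sham+pimobendan (limma adjusted p = 0.0408). Gtpbp10, a GTPase of large subunit assembly, rose to 5.61 ± 0.59 FPKM in TAC+pimobendan, against 3.76 ± 0.42 FPKM in TAC+control (limma adjusted p = 0.0449).

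Of 15 mitochondrial translation factors tested, only Guf1, the relative of the bacterial elongation factor LepA, was called. It rose to 5.15 ± 0.65 FPKM in TAC+pimobendan, against 3.45 ± 0.11 FPKM in Sham+pimobendan (SD, n = 3 each; limma adjusted p = 0.0372). None of 19 mitochondrial aminoacyl-tRNA synthetases was called by limma in any comparison. Between TAC+pimobendan and TAC+control the median log2 fold change was -0.03 for transcription and assembly factors, -0.02 for translation factors and -0.07 for synthetases, and all 3 medians were above 0 on TPM. Of 8 nuclear regulators, 1 was called: Gabpa, the DNA-binding subunit of GABP, which binds the ETS core described above. It rose to 11.9 ± 1.1 FPKM in TAC+pimobendan, against 7.64 ± 0.37 FPKM in TAC+control (limma adjusted p = 0.0409) and 7.86 ± 1.24 FPKM in Sham+pimobendan (limma adjusted p = 0.0342). With 1 library left out, the call of Gabpa held in 4 of 12 fits against TAC+control and in 7 of 12 against Sham+pimobendan, and those of Gtpbp10, Ptcd3, Tfb2m and Guf1 in 3, 4, 5 and 6 of 12. Under median-ratio scaling and quantile normalisation only the call of Gabpa against Sham+pimobendan was kept.

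Base composition moved with these differences. GC content of the longest coding transcript ran from 39.6% to 60.6% over the 78 genes (median 50.0%, against 50.5% for all genes tested). Across the 78 genes, the Spearman correlation of GC content with the log2 fold change was -0.47 between TAC+pimobendan and TAC+control and -0.57 between TAC+pimobendan and Sham+pimobendan. Over 11311 genes it was -0.50 and -0.64. In TAC+control against Sham+control it was -0.11 for the 78 genes and 0.10 over the 11311 genes. In Sham+pimobendan against Sham+control it was positive, at 0.22 for the 78 genes and 0.38 over the 11311 genes. For the interaction it was -0.43 and -0.56. Transcript length also went with the fold changes over the 11311 genes. Its Spearman correlation was 0.32 between TAC+pimobendan and TAC+control and 0.30 between TAC+pimobendan and Sham+pimobendan. It was -0.24 between TAC+control and Sham+control and 0.35 for the interaction. Across the 78 genes these 4 values were 0.11, 0.15, -0.00047 and 0.12. These correlations are across genes, which are not independent replicates.

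Among the 19 genes richest in GC (54.0% to 60.6%, among them Mrpl12, Mrpl34, Mrpl4 and Mrpl28) 0 had a positive log2 fold change between TAC+pimobendan and TAC+control, and the median was -0.22. Among the 20 poorest (39.6% to 46.4%, among them Mrpl50 and Mrpl1) 5 were positive and the median was -0.07. Against Sham+pimobendan, 11 of those 20 were positive. Mrpl50 has 42.3% GC, Mrpl42 46.7%, Mrpl12 56.1% and Mrpl34 58.3%. The part of base composition or of transcript length in these results was not tested.

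**Figure D5:**
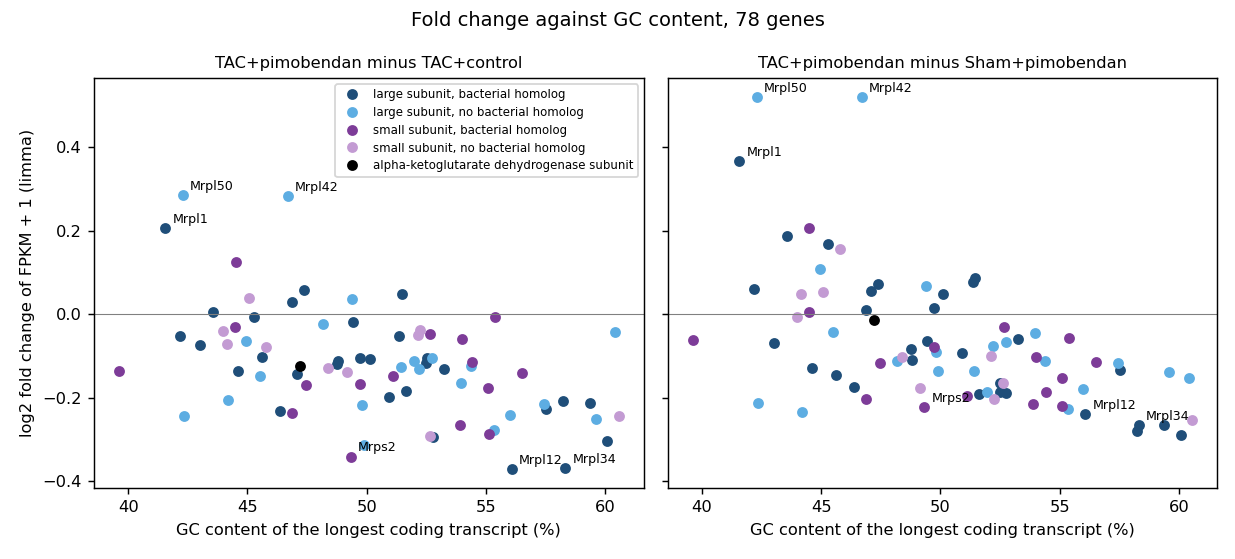
Log2 fold change of FPKM + 1 (vertical axis) against GC content of the longest coding transcript (horizontal axis, %) for the 78 genes, coloured by subunit and ancestry, in TAC+pimobendan against TAC+control (left) and against Sham+pimobendan (right). Values decline with GC content in both panels (Spearman correlations -0.47 and -0.57), and none of the genes at 54.0% GC or above is positive in either.

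Libraries also differed in bias and in traces of other cells. A library's own correlation of GC content with its deviation from the mean of all libraries, over all genes, was between -0.54 and -0.21 in TAC+pimobendan, 0.02 and 0.29 in TAC+control, 0.14 and 0.54 in Sham+pimobendan, and -0.36 and 0.47 in Sham+control. The 6 cardiomyocyte markers (Tnnt2, Tnni3, Myh6, Actn2, Mb and Ryr2) averaged 73.0 to 21523 FPKM, while of the 4 atrial markers Sln (0.0975 FPKM), Myl7 (0.642 FPKM) and Myl4 (2.00 FPKM) were low and Nppa, a natriuretic peptide gene that the stressed ventricle also expresses, averaged 294.2 FPKM. The summed level of the 5 erythroid markers, all in the table, was 1142 to 2281 FPKM in TAC+pimobendan, 4199 to 6702 FPKM in TAC+control, 452 to 1906 FPKM in Sham+pimobendan and 1553 to 3063 FPKM in Sham+control. It was thus highest in the same group as the ribosomal genes, and its part in the result was not tested. The sum of the cardiomyocyte markers was 37435 to 41560 FPKM in TAC+pimobendan and 41587 to 45312 FPKM in TAC+control, so these groups lay just apart, and so did those of Cidea, the brown adipocyte marker in the table, at 22.3 to 34.3 FPKM in TAC+pimobendan and 34.9 to 43.4 FPKM in TAC+control. Single markers were also called lower in TAC+pimobendan than in TAC+control, the cardiomyocyte gene Actn2 (log2 fold change -0.38 ± 0.08, SE; limma adjusted p = 0.0409) and the erythroid gene Alas2 (-1.22 ± 0.26; limma adjusted p = 0.0409). Of the 6 cardiomyocyte markers, 4 were lower and 2 higher in that comparison, with a median log2 fold change of -0.08. Mb, at 21523 FPKM, was the largest part of their sum. The 5 erythroid markers were all lower. The part of these markers was likewise not tested. Sums of endothelial, fibroblast, macrophage, smooth muscle and lymphocyte markers overlapped between the TAC groups, as did those of atrial markers. By log2 fold change all 6 macrophage markers were nevertheless higher in TAC+pimobendan than in TAC+control (median 0.26), and 0 were called. Endothelial markers were 4 higher and 1 lower, fibroblast markers 3 and 2, and smooth muscle and pericyte markers 4 and 1. Their part was not tested either.

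Between TAC+pimobendan and Sham+pimobendan, the comparison in which Mrpl50 and Mrpl42 were called, 2 marker sums lay wholly apart. Fibroblast markers summed to 357.3 to 433.6 FPKM in TAC+pimobendan and 274.2 to 331.1 FPKM in Sham+pimobendan. Dcn, at a mean of 277.4 FPKM over the 12 libraries, made up most of that sum. By log2 fold change 2 of the 5 fibroblast markers were higher and 3 lower, with a median of -0.10. Smooth muscle and pericyte markers summed to 194.4 to 204.5 FPKM in TAC+pimobendan and 219.3 to 306.1 FPKM in Sham+pimobendan. Acta2, smooth muscle actin, fell to 36.8 ± 17.0 FPKM in TAC+pimobendan, against 126.8 ± 51.8 FPKM in Sham+pimobendan (SD, n = 3 each; limma adjusted p = 0.0314). The endothelial gene Pecam1 fell to 63.5 ± 4.4 FPKM in TAC+pimobendan, against 87.7 ± 13.9 FPKM in Sham+pimobendan (limma adjusted p = 0.0497). Of the 5 smooth muscle and pericyte markers, 3 were lower and 2 higher, with a median log2 fold change of -0.10. Of the 5 endothelial markers, 3 were likewise lower and 2 higher, with a median of -0.28. The calls of Acta2, Pecam1, Actn2 and Alas2 held in 8, 3, 6 and 5 of 12 fits with 1 library left out. The part of these cell types in the values of the 78 genes was not tested.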

How the data were processed

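Per the labels, left ventricular mRNA was selected with oligo(dT) beads, fragmented and reverse transcribed from random hexamers. The authors deposited 1 table that gives FPKM and TPM per gene in every library, per the file headers. The tools RSEM 1.2.12, DESeq2 1.4.5, Bowtie2 2.2.5 and HISAT2 2.0.4 and the build GRCm38 come from the submitters' processing notes, which give no roles. The table holds no counts, so depth is unknown and no counting interval is given. Library strand is not given in the sources used here, so genes that share exon bases (26 of the 78, by the GENCODE annotation of the same build) are uncertain.

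Groups came from the labels, which call the samples biological replicates. FPKM was analysed as log2(FPKM + 1) with limma 3.58.1 (trend) in R 4.3.3, 1 mean per group, 8 residual degrees of freedom, for genes that reached 1 FPKM in 3 or more libraries, with Benjamini-Hochberg adjustment over 11415 genes and a threshold of 0.05. Fold changes on this scale understate those of low genes. The fit was tested on simulated data. Replicate numbers were used as names. Genes were named as the called ones, the 3 highest and 3 lowest fold changes per comparison, the 6 highest and 3 lowest levels, and a panel with known roles; Mrpl47, Mrpl49, Mrpl27, Mrpl9, Mrpl24, Mrpl33 and the genes named for non-overlap were added after values were seen. Members, lists and motifs were chosen with earlier results of these data known. Alternatives were other scalings, filters, pseudocounts, a replicate block, fits of the groups compared and each library left out.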

Additional observations from a re-analysis of the deposited data

How the results depend on the processing

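Calls among the 78 genes depended on the setting. Between TAC+pimobendan and Sham+pimobendan, 2 were called higher as reported. The number was 0 under median-ratio scaling, without a filter on low values and in a fit of the groups compared alone, and 1 under quantile normalisation. With the replicate number as a block it was also 0, as for all genes tested in that comparison, and the block called none of the 78 elsewhere. The labels call the samples biological replicates and give no pairing by number. Deviations from the group means of same-numbered samples correlated at -0.44 to 0.25 over 18 pairs. Those of differently numbered samples correlated at -0.41 to 0.43 over 36 pairs. Deviations within a group of 3 are not independent, so these ranges cannot exclude a pairing. Leaving out 1 library at a time gave 0 to 3, and 0 to 2 between TAC+pimobendan and TAC+control and 0 to 1 for the interaction. In both of the last the highest count came without TAC+pimobendan library 1. Without that library 1096 of the 11415 genes were called higher and 94 lower between TAC+pimobendan and TAC+control. For the interaction 738 were then higher and 35 lower.

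Scale moved the medians. The median of all genes between TAC+pimobendan and TAC+control, 0.10 as reported, was -0.01 under median-ratio scaling, and the median of the 78 genes was then -0.24; it was 0.15 between TAC+control and Sham+control and -0.28 for the interaction, which was -0.0799 on TPM. Relative to all genes, the 78 lay at -0.27 to -0.11 between TAC+pimobendan and TAC+control over the 21 settings. Counts of genes without overlap, computed on further scales chosen after seeing the data, moved as well. On TPM, 15 were lower between TAC+pimobendan and TAC+control (against 3.24% of all genes tested) and 1 lower between TAC+control and Sham+control (against 12.8%). Between TAC+pimobendan and Sham+pimobendan 8 were higher and 11 lower on TPM (against 21.1% and 5.67%). Under median-ratio scaling, 55 were lower between TAC+pimobendan and TAC+control (against 16.3%) and 20 higher between TAC+control and Sham+control (against 7.7%). On that scale 0 were higher between Sham+pimobendan and Sham+control (against 5.36%).

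Single genes near 0 changed sign. Between TAC+control and Sham+control, median-ratio scaling gave 0.0110 for Mrps26, 0.0169 for Mrps28 and 0.0195 for Mrps15. With single libraries left out, Mrps26 ran from -0.215 to 0.0324 (positive without Sham+control library 3) and Mrps28 from -0.118 to 0.0174 (positive without TAC+control library 1). Between TAC+pimobendan and TAC+control, Mrps7 was 0.0671 on TPM and ran from -0.0512 to 0.0393 with single libraries left out (positive without TAC+control library 1 or 2 or TAC+pimobendan library 3). Mrps22 ran from -0.177 to 0.0961 there (positive without TAC+control library 2). The cause of these changes was not tested. The deposited table holds no counts, so what depth adds to the errors is unknown.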
